A study of Mus musculus with 12 samples.

Results

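The splicing factor and hnRNP genes described here code for RNA-binding and spliceosomal proteins, and they were followed in cultured mouse podocytes with and without DZNep and with and without high glucose. Podocytes are the epithelial cells that cover the capillaries of the kidney glomerulus. The members were taken by symbol from the array's platform annotation: the Hnrnp, Srsf, Sf3, Snrp and Tra2 genes, the kinases Clk1 to Clk4, and the helicases Ddx5 and Ddx17. The annotation held 137 such probes of 56 genes. Of these, 100 probes of 50 genes were detected (detection p under 0.05) on at least 3 of the 12 arrays, among 16311 probes with 1 gene symbol that were detected in the same way. The other 37 probes are not described by level. Among them are probes of Hnrnpa2b1, Ddx5, Hnrnpk, Tra2b and Clk1 that were detected on 0 arrays. For 6 genes (Hnrnpa3, Hnrnph2, Hnrnpu, Snrpb2, Snrpe and Srsf12) no probe passed this filter.

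Total RNA was measured on Illumina mouse expression arrays in 4 groups of 3 arrays. The DZNep group had 48 h of DZNep. The high glucose plus DZNep group had 48 h of each, and the high glucose group had 48 h of high glucose alone. The control group had neither. DZNep (3-deazaneplanocin A) blocks S-adenosylhomocysteine hydrolase and so hinders methyltransferases, among them the Polycomb enzyme EZH2. The doses of DZNep and glucose are not given in the sources used here, and the labels do not say whether the 3 replicates of a group were separate cultures. The p-values cover only the spread between these samples, which may be technical.

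Before a messenger RNA leaves the nucleus, its introns are cut out by the spliceosome, which is built from small nuclear ribonucleoproteins (snRNPs). SR proteins and the related Tra2 proteins bind enhancers in exons and mostly favour their inclusion, whereas hnRNP proteins coat the nascent transcript and often favour exon skipping. Many of these genes control their own messages, through alternative exons that carry an early stop codon or through retained introns, and the Clk kinases adjust the activity of SR proteins by phosphorylation.

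Levels are log2 of background-corrected, quantile-normalized intensity to which an offset of 16 had been added, and a change is a difference of group means on that scale, which understates the change of dim probes. A probe was called when the limma fit over all 16311 probes gave a Benjamini-Hochberg adjusted p under 0.05. The standard errors (SE) are those of the fit. Array levels cannot separate less of an RNA per cell from a smaller share of cells that express it. A level of one probe cannot be set against that of another probe.

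The labelled cell type was checked against podocyte markers. Of 10 listed, 5 had a detected probe (Nphs1, Synpo, Actn4, Podxl and Cd2ap), and no probe of Tcf21, Kirrel or Ptpro passed the filter. The tubular genes Cdh16 and Lrp2 were also detected. Probes of the endothelial markers Pecam1 and Cdh5 and of the leukocyte marker Ptprc did not pass the filter. The summed linear level of 5 detected markers of 5 listed for mesangial cells and fibroblasts ran from 815 to 840 with DZNep, against 471 to 629 in control. For the podocyte list (5 of 10 detected) it ran from 19873 to 21406 with DZNep, against 17990 to 19476 in control. For the tubular list (4 of 5) it ran from 12198 to 14466 with DZNep, against 15026 to 15623 in control. For the endothelial list (4 of 6) it was 283 to 327 with DZNep, against 186 to 253 in control, and for the leukocyte list (2 of 5) 1464 to 1699 with DZNep, against 1775 to 1830 in control. A linear sum mostly follows its brightest probes, and single podocyte and tubular probes were called either way with DZNep. Of 8 podocyte probes 3 were called lower and 1 higher (1 and 1 without control 3). Of the 2 leukocyte probes, Laptm5 was called higher (1.215) and the brighter Cd14 was not called (-0.244). Of 4 tubular probes, the bright Cdh16 was called lower (-0.335) and the dim Cdh1 higher (0.619). Of 4 endothelial probes 2 were called higher (Eng 0.80 and Esam 0.98) and 0 lower. Of 5 mesangial and fibroblast probes 2 were called higher (Pdgfrb 0.69 and Gata3 1.13) and 0 lower. The counts of these 2 lists were the same without control 3. The part of these markers in the results below was not tested.

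Control 3 stood apart from the other arrays. It lay at -26.6 on the second principal component of all 16311 probes, while the other 11 arrays lay between -9.2 and 19.3. In control 3, 21 of the 100 splicing factor probes, from 17 genes, exceeded the mean of controls 1 and 2 by more than 0.5, against 5.41% of all probes. The highest level of the 12 arrays was found in control 3 for 43 of the 100 probes, against 17.4% of all probes. The counts of each comparison with control are therefore given with and without this array. The raw medians of the 12 arrays ran from 133 to 151, with 140 in control 3, and 38.4% to 41.3% of probes were detected per array, with 38.9% in control 3.

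With DZNep, 35 of the 100 probes fell and 2 rose against control, and the probes that fell were of hnRNP, SR protein, Tra2, snRNP protein and Clk genes and of Ddx5, with 0 of SF3 genes. Of all 16311 probes 31.1% were called in this comparison, 17.1% higher and 14.1% lower. The median change of the 100 probes was -0.19 on the log2 scale, against 0.03 over all probes. Without control 3, 28 probes fell and 1 rose, against 22.7% of all probes called (12.4% higher and 10.3% lower), and all 28 were among the 35. The median was then -0.17. The 35 probes that fell came from 25 genes. The DZNep and control arrays did not overlap on 47 probes lower and 10 higher with DZNep, against 19.7% and 23.8% of all probes. With arrays centred on their medians in place of quantile normalization, 33 of the 100 probes fell and 0 rose, while over all probes 2435 fell and 1331 rose, against 2297 and 2783 with quantile normalization.

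The families differed in their counts. Of 37 hnRNP probes 15 fell and 0 rose (13 fell without control 3). Of 21 SR protein probes 10 fell and 1 rose (9 fell and 0 rose without control 3). Both Tra2 probes fell, with and without control 3. Of 12 snRNP protein probes 5 fell (2 without control 3), and all 12 changes were below 0. Of 8 Clk probes 2 fell (1 without control 3), and of 4 DEAD-box probes 1 fell in either setting. Of 16 SF3 probes 1 rose and 0 fell in either setting. At an unadjusted p under 0.05 there were 2, both higher with DZNep, while 31.1% of all probes passed even the adjusted threshold. Differences between families were not tested.

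**Figure D1:**
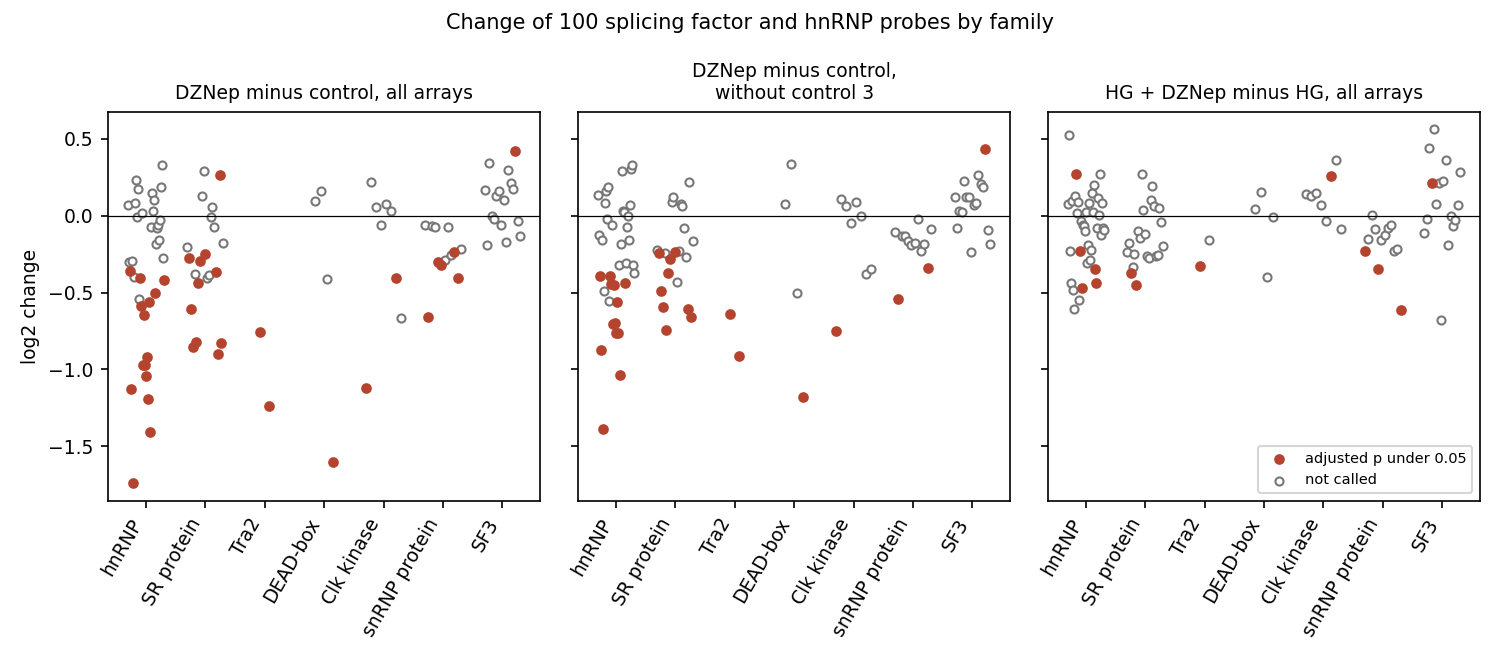
Log2 change of each of the 100 probes by family, for DZNep minus control with all arrays (left), the same without control 3 (middle) and high glucose plus DZNep minus high glucose (right), with filled points at an adjusted p under 0.05. The largest changes lie below 0 in the left panel, down to -1.74, while the SF3 probes lie between -0.19 and 0.42 there.

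Hnrnpa2b1, which codes for the pre-mRNA binding proteins hnRNP A2 and B1, gave the largest change. Its probe ILMN_2615855 had levels of 9.39, 9.45 and 10.03 in DZNep 1, 2 and 3 and of 9.90, 10.01 and 9.97 in the 3 high glucose plus DZNep arrays, against 10.97, 10.33 and 10.04 in high glucose and 10.97, 11.05 and 12.07 in control. All 3 DZNep arrays lay below all 3 control arrays, and control 3 exceeded the mean of controls 1 and 2 by 1.06. The change with DZNep was -1.74 (SE 0.30, adjusted p = 0.00172), which is 0.3-fold, and without control 3 it was -1.39 (adjusted p = 0.00405). The second detected probe, ILMN_2771074, was dim and was detected on 11 arrays. It was at 5.87, 6.09 and 5.65 with DZNep, 5.90, 5.23 and 6.21 with high glucose plus DZNep, 6.34, 6.52 and 6.30 with high glucose and 6.55, 6.17 and 6.08 in control. Its control 3 was the lowest of the 3 controls, and its change of -0.40 was not called (adjusted p = 0.188).

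Ddx5 codes for the RNA helicase p68, which acts in splicing and transcription. Its probes ILMN_2666830 and ILMN_2747168 were detected on 0 arrays, and its 1 detected probe, ILMN_1215167, was dim. Its levels were 5.80, 6.08 and 6.46 with DZNep, 6.25, 6.47 and 6.85 with high glucose plus DZNep, 7.21, 6.48 and 5.90 with high glucose and 7.19, 7.40 and 8.55 in control. The DZNep arrays lay below all controls, with control 3 above the other controls by 1.26, and the high glucose arrays ran from the range of the DZNep arrays to the level of control 1. On this probe Ddx5 changed by -1.60 with DZNep (SE 0.38, adjusted p = 0.00874), and by -1.18 without control 3 (adjusted p = 0.0282).

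Its paralogue Ddx17, the helicase p72, had 3 probes and none was called. The brightest, ILMN_1234672, was at 13.69, 13.83 and 13.76 with DZNep, 13.82, 13.80 and 13.75 with high glucose plus DZNep, 13.69, 13.77 and 13.77 with high glucose and 13.63, 13.72 and 13.63 in control, a change of 0.10. These 12 levels lay within a narrow band, and control 3 lay close to control 1. Probe ILMN_2751194 was at 6.10, 5.64 and 6.01 with DZNep, 6.07, 5.56 and 5.87 with high glucose plus DZNep, 5.48, 5.87 and 5.69 with high glucose and 5.71, 5.46 and 6.10 in control (0.16). Probe ILMN_2696511, detected on 3 arrays, was at 4.89, 5.03 and 4.78 with DZNep, 5.18, 5.16 and 5.42 with high glucose plus DZNep, 5.52, 6.01 and 5.41 with high glucose and 5.28, 5.53 and 5.14 in control (-0.41, adjusted p = 0.0656). Control 3 was the highest control for the first of these dim probes and the lowest for the second.

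Hnrnpk, a poly(C)-binding protein with KH domains, showed the widest spread between probes of 1 gene. Probe ILMN_1245987 had levels of 8.59, 8.55 and 8.95 with DZNep, 8.93, 8.95 and 9.24 with high glucose plus DZNep, 9.87, 9.10 and 9.02 with high glucose and 9.67, 9.80 and 10.85 in control. DZNep and control did not overlap, with control 3 above the other controls by 1.11. The change was -1.41 (SE 0.30, adjusted p = 0.00506), and -1.04 without control 3 (adjusted p = 0.0108). Probe ILMN_2784821 was at 7.02, 7.38 and 7.51 with DZNep, 7.51, 7.51 and 6.98 with high glucose plus DZNep, 7.59, 7.44 and 7.64 with high glucose and 7.60, 7.38 and 7.14 in control, a change of -0.07. Probe ILMN_1241308 was at 6.08, 6.15 and 6.26 with DZNep, 5.90, 5.98 and 6.19 with high glucose plus DZNep, 5.78, 6.17 and 5.68 with high glucose and 5.70, 6.03 and 6.30 in control, a change of 0.15. For these probes the groups overlapped, control 3 was the lowest control on one and the highest on the other, and neither was called.

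Hnrnph1, which binds G-rich tracts, had 5 detected probes and all 5 fell. Probe ILMN_2684986 was at 6.01, 5.53 and 6.38 with DZNep, 6.53, 6.66 and 6.53 with high glucose plus DZNep, 6.86, 6.67 and 6.76 with high glucose and 6.82, 6.66 and 8.02 in control (-1.19, adjusted p = 0.013; -0.76 without control 3). Control 3 exceeded the mean of controls 1 and 2 by 1.28 here, the highest value among the 100 probes, but controls 1 and 2 also lay above the 3 DZNep arrays. Probe ILMN_1256671 was at 8.93, 9.13 and 9.46 with DZNep, 9.39, 9.55 and 9.60 with high glucose plus DZNep, 9.83, 9.44 and 9.19 with high glucose and 9.87, 9.997 and 10.78 in control (-1.04, adjusted p = 0.00666; -0.76 without control 3). Probe ILMN_2688923 was at 9.53, 9.76 and 10.03 with DZNep, 9.90, 10.08 and 10.05 with high glucose plus DZNep, 10.35, 10.25 and 9.72 with high glucose and 10.45, 10.49 and 11.29 in control (-0.97; -0.70 without control 3). On both, control 3 was the highest of the 12 arrays. Probe ILMN_2684987 was at 6.56, 6.96 and 6.96 with DZNep, 6.47, 7.02 and 6.92 with high glucose plus DZNep, 7.23, 7.05 and 7.07 with high glucose and 7.38, 7.38 and 8.46 in control (-0.92; -0.56 without control 3). The brightest, ILMN_1218767, was at 10.31, 10.54 and 10.61 with DZNep, 10.66, 10.64 and 10.65 with high glucose plus DZNep, 10.89, 10.63 and 10.62 with high glucose and 10.90, 10.98 and 11.53 in control (-0.65; -0.45 without control 3). DZNep and control did not overlap on any of the 5 probes, and all 5 were also called without control 3, with adjusted p from 0.0156 to 0.0362.

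Hnrnpa1, a repressor of exon inclusion, had 3 probes of which 2 fell. Probe ILMN_3096701 was at 8.89, 9.13 and 9.49 with DZNep, 9.26, 9.10 and 9.18 with high glucose plus DZNep, 9.73, 9.67 and 9.45 with high glucose and 10.06, 10.03 and 10.81 in control. The DZNep arrays lay below all controls, and control 3 lay above the other controls by 0.76 (-1.13, SE 0.20, adjusted p = 0.00214; -0.87 without control 3, adjusted p = 0.00363). Probe ILMN_1244536 was at 10.92, 11.07 and 11.24 with DZNep, 11.16, 10.93 and 11.03 with high glucose plus DZNep, 11.20, 11.27 and 11.34 with high glucose and 11.61, 11.32 and 11.37 in control (-0.36, adjusted p = 0.025; -0.39 without control 3, adjusted p = 0.0403). Here control 1 was the highest control. Probe ILMN_3024068 was at 6.90, 7.44 and 7.27 with DZNep, 7.07, 7.17 and 7.37 with high glucose plus DZNep, 7.08, 7.19 and 7.06 with high glucose and 7.14, 7.58 and 7.78 in control, and its change of -0.30 was not called.

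Hnrnpf and Hnrnph3, relatives of Hnrnph1, had 1 detected probe each. Hnrnpf was at 8.69, 8.53 and 8.85 with DZNep, against 9.35, 9.44 and 10.18 in control, and fell with and without control 3 (-0.97, adjusted p = 0.00515; -0.71, adjusted p = 0.00974). Hnrnph3 was at 6.19, 6.44 and 6.35 with DZNep, against 6.63, 6.67 and 7.38 in control (-0.56, adjusted p = 0.0427). Without control 3 the change of Hnrnph3 was -0.32 and was not called (adjusted p = 0.134).

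Hnrnpdl, a relative of the AU-rich element binding protein Hnrnpd, had 3 probes. Probe ILMN_2501670 was at 8.81, 8.93 and 8.96 with DZNep, 9.01, 9.10 and 9.13 with high glucose plus DZNep, 9.21, 9.13 and 9.003 with high glucose and 9.27, 9.42 and 9.76 in control, and changed by -0.59 (-0.45 without control 3, adjusted p = 0.00682). Probe ILMN_2690061 was at 10.92, 11.16 and 11.03 with DZNep, 11.10, 11.04 and 11.06 with high glucose plus DZNep, 11.31, 11.31 and 11.27 with high glucose and 11.39, 11.46 and 11.47 in control, with the 3 control arrays close together (-0.40; -0.39 without control 3). Both DZNep groups lay below control and high glucose on this probe. Probe ILMN_2903440 was at 8.39, 8.65 and 8.87 with DZNep, 8.48, 8.46 and 8.39 with high glucose plus DZNep, 9.03, 8.99 and 8.73 with high glucose and 8.81, 8.59 and 8.45 in control, so that its DZNep and control arrays overlapped (0.02). Hnrnpd itself, detected on 5 arrays, was at 5.15, 4.97 and 4.93 with DZNep, against 5.82, 5.32 and 5.53 in control (-0.54, adjusted p = 0.0671).

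Hnrnpll, known in mouse and human T cells as a regulator of Ptprc splicing, had 2 probes. Probe ILMN_2684732 was at 10.10, 10.05 and 10.07 with DZNep, 10.10, 9.93 and 10.11 with high glucose plus DZNep, 10.37, 10.51 and 10.30 with high glucose and 10.48, 10.54 and 10.70 in control. The 6 arrays with DZNep lay below the 6 without it, and the change was -0.50 (adjusted p = 0.00165; -0.44 without control 3, adjusted p = 0.00627). Probe ILMN_2768850 was at 7.98, 8.16 and 8.38 with DZNep, 8.17, 8.02 and 7.97 with high glucose plus DZNep, 8.44, 8.57 and 8.47 with high glucose and 8.60, 8.36 and 8.10 in control, where control 3 was the lowest control (-0.18, not called).

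The other hnRNP genes gave 1 call. Hnrnpul2 probe ILMN_2531554 was at 6.38, 6.72 and 6.96 with DZNep, against 7.13, 6.98 and 7.21 in control (-0.42, adjusted p = 0.0463), and was not called without control 3 (-0.37, adjusted p = 0.133). Its other probe, ILMN_2666849, was at 9.61, 9.64 and 9.68 with DZNep, against 10.02, 9.90 and 9.84 in control (-0.28, adjusted p = 0.0561). On the first of these control 3 was the highest control and on the second the lowest. Hnrnpc, which binds uridine tracts, was at 14.03, 14.03 and 14.03 with DZNep, against 14.08, 14.02 and 14.01 in control on ILMN_1235470 (-0.01), and at 10.83, 10.77 and 10.83 with DZNep, against 10.59, 10.66 and 10.67 in control on ILMN_2511051 (0.17). Hnrnpab was at 14.51, 14.53 and 14.55 with DZNep, 14.59, 14.57 and 14.51 with high glucose plus DZNep, 14.39, 14.39 and 14.51 with high glucose and 14.53, 14.37 and 14.44 in control on ILMN_2612423, the brightest of the 100 probes (0.08). Hnrnpl, which binds CA repeats, was at 12.98, 12.98 and 12.97 with DZNep, against 12.90, 12.98 and 12.94 in control on ILMN_2627690 (0.03). For these 3 genes control 3 lay close to the other controls on the bright probes. The dim Hnrnpl probe ILMN_1231516 was at 4.97, 5.46 and 4.89 with DZNep, against 5.39, 4.78 and 4.84 in control (0.10).

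Hnrnpm had 3 bright probes, none called. Probe ILMN_1239021 was at 12.26, 12.41 and 12.53 with DZNep, against 12.56, 12.56 and 12.57 in control (-0.16), probe ILMN_2921095 at 12.56, 12.59 and 12.67 with DZNep, against 12.54, 12.67 and 12.78 in control (-0.06), and probe ILMN_2921103 at 13.02, 13.19 and 13.01 with DZNep, against 13.20, 13.09 and 13.16 in control (-0.08). Hnrnpa0 was at 11.42, 11.38 and 11.52 with DZNep, against 11.25, 11.35 and 11.50 in control on ILMN_1247047 (0.07), and at 6.61, 6.49 and 7.21 with DZNep, against 6.93, 6.85 and 7.43 in control on ILMN_2645645 (-0.30, with control 3 above the other controls by 0.54). Neither Hnrnpm nor Hnrnpa0 changed past the test. Hnrnpr was at 6.92, 6.97 and 6.84 with DZNep, against 6.89, 6.78 and 7.12 in control (-0.03). Hnrnpul1 was at 6.32, 6.32 and 5.55 with DZNep, against 5.38, 6.08 and 5.74 in control on ILMN_2688427 (0.33), and at 6.67, 6.77 and 6.89 with DZNep, against 6.44, 6.51 and 6.82 in control on ILMN_2688429 (0.19). Control 3 was the highest control for Hnrnpr and for the second Hnrnpul1 probe.

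**Figure D2:**
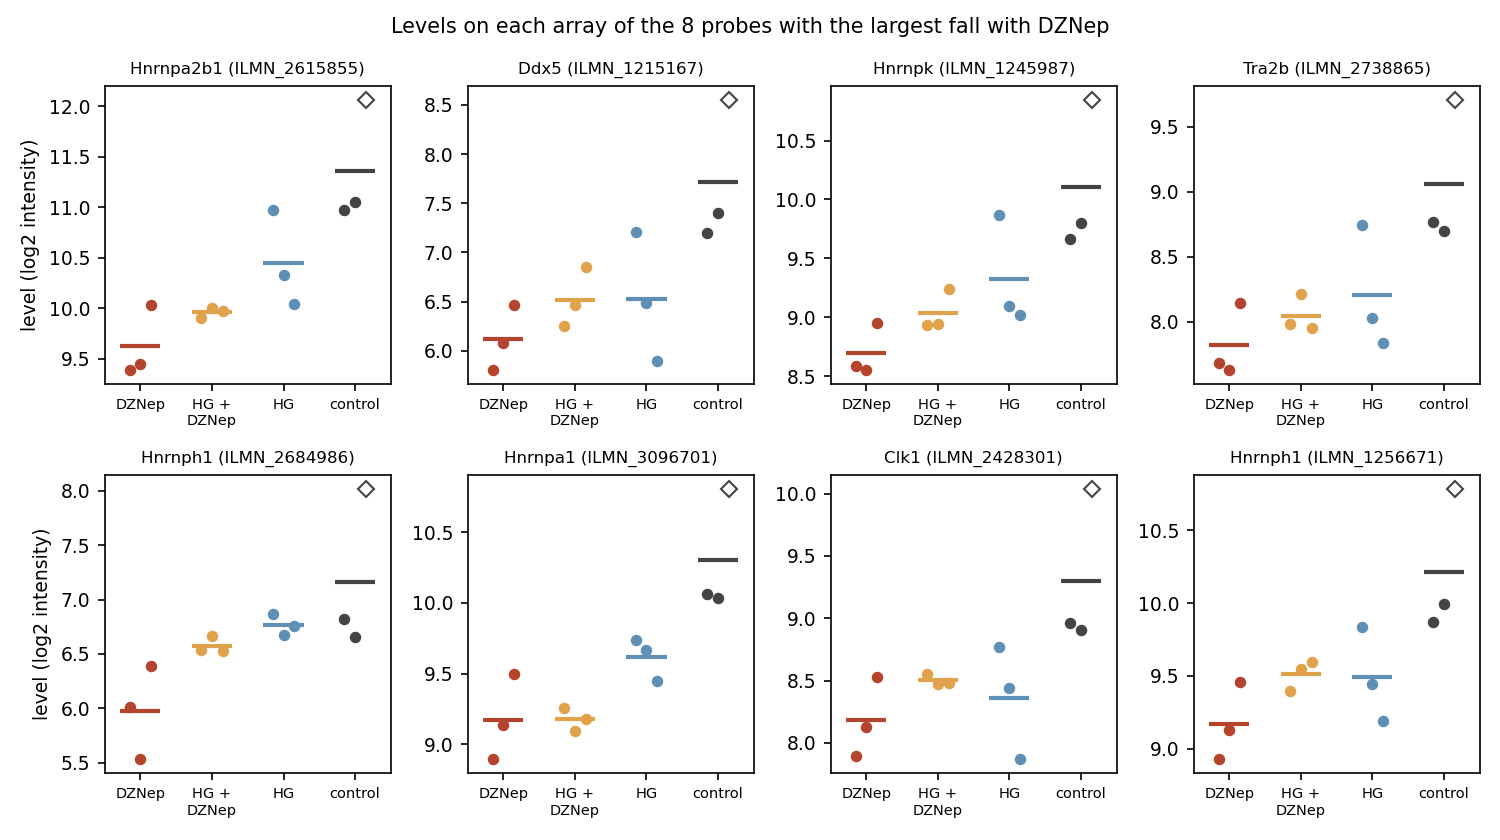
Level (log2 intensity) on each of the 12 arrays for the 8 probes with the largest fall with DZNep, by group, with HG for high glucose, a bar at each group mean and an open diamond for control 3. On each of the 8 probes control 3 is the highest array, and the 3 DZNep arrays lie below controls 1 and 2.

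Tra2a and Tra2b bind GAA-rich enhancers in exons, and their probes fell by different amounts. Tra2a probe ILMN_2857086 was at 11.30, 11.27 and 11.29 with DZNep, 11.37, 11.35 and 11.49 with high glucose plus DZNep, 11.82, 11.77 and 11.60 with high glucose and 11.96, 11.89 and 12.28 in control. The 6 arrays with DZNep lay between 11.27 and 11.49, below the 6 without it, and control 3 lay above the other controls by 0.35. The change was -0.76 (SE 0.10, adjusted p = 0.000442), the lowest adjusted p among the 100 probes, and -0.64 without control 3 (adjusted p = 0.000869). Tra2b probe ILMN_2738865 was at 7.68, 7.63 and 8.15 with DZNep, 7.98, 8.21 and 7.95 with high glucose plus DZNep, 8.75, 8.03 and 7.84 with high glucose and 8.77, 8.70 and 9.71 in control (-1.24, SE 0.28, adjusted p = 0.00764). Without control 3, which lay 0.98 above the other controls, Tra2b changed by -0.91 (adjusted p = 0.0225).

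Promoter sequence was compared for the member genes, since many of them moved in the same direction. RefSeq promoter windows of assembly GRCm38.p6, from 250 bases before to 50 after a start site, were found for 43 of the 50 genes. The windows of Hnrnpa2b1, Hnrnpk and Tra2b, which are among the genes with the largest falls, and of Tra2a, with the lowest adjusted p, are shown 5′ to 3′ on the gene's own strand, each of which is the minus strand. Capitals mark CCAAT, the GC box GGGCGG and, in the Tra2a window, the CRE sequence TGACGTCA, on either strand.
Hnrnpa2b1 (chr6:51469845-51470144): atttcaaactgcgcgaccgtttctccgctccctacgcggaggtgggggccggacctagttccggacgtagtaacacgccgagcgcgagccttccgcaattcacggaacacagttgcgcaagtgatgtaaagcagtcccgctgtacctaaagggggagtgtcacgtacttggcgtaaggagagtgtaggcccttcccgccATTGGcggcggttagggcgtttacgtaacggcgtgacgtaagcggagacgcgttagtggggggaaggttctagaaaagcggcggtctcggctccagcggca
Hnrnpk (chr13:58402068-58402367): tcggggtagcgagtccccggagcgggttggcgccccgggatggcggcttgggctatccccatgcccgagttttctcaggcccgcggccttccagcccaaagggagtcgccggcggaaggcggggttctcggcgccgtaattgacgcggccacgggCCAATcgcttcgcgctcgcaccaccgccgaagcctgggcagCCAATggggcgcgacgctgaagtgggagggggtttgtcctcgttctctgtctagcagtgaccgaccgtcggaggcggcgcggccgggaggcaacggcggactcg
Tra2b (chr16:22265956-22266255): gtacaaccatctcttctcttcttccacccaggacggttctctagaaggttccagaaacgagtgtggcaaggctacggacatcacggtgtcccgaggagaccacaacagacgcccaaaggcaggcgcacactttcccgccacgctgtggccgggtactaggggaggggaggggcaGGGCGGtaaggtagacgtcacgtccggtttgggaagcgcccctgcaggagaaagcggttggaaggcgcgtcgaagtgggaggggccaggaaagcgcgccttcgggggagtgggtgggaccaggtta
Tra2a (chr6:49264003-49264302): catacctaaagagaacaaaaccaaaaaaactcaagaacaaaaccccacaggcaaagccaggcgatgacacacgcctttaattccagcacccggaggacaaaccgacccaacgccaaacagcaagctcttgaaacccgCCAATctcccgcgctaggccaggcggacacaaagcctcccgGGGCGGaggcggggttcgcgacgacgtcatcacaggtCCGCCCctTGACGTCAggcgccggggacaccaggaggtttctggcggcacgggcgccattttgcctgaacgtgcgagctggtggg

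These 4 windows shared no single motif of those searched. CCAAT stood in the Hnrnpa2b1, Hnrnpk and Tra2a windows, GGGCGG in those of Tra2b and Tra2a, and TGACGTCA in that of Tra2a. Counting both strands and any overlap between motifs, GGGCGG stood in 76.7% of the 43 genes, against 69.2% of 8333 genes with a detected probe and 38.2% of all 27025 genes with a window. The ETS-type sequence CCGGAAG stood in 34.9%, against 20.4% of genes with a detected probe, and CCAAT in 53.5%, against 43.1%. CACGTG stood in 14.0%, against 11.7%, and TATAAA in 18.6%, against 9.11%. TGACGTCA stood in 4 of the 20 genes with a probe that fell with DZNep and in 0 of the other 23, against 3.5% of genes with a detected probe. Of all 43 genes, 9.3% held TGACGTCA. By the same split CCGGAAG stood in 5 of the 20 and 10 of the 23, and GGGCGG in 16 of the 20 and 17 of the 23. CCAAT stood in 12 and 11, TATAAA in 3 and 5, and CACGTG in 3 and 3. The median GC content of the member windows was 62.5%, against 60.7% for genes with a detected probe. These counts are a description and were not tested.

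Among the SR protein genes, Srsf10, a splicing repressor when dephosphorylated, fell on 3 of 4 probes. Probe ILMN_1248565 was at 5.997, 6.33 and 6.37 with DZNep, 6.56, 6.72 and 6.50 with high glucose plus DZNep, 6.98, 7.05 and 7.10 with high glucose and 6.92, 7.03 and 7.20 in control (-0.82, SE 0.11, adjusted p = 0.000464; -0.74 without control 3). The 6 arrays with DZNep lay below the 6 without it. Probe ILMN_2698282 was at 7.51, 7.55 and 7.70 with DZNep, 7.80, 7.87 and 7.71 with high glucose plus DZNep, 8.27, 8.19 and 8.03 with high glucose and 7.94, 8.20 and 8.43 in control (-0.61; -0.49 without control 3). Probe ILMN_3019002 was at 7.63, 7.34 and 7.71 with DZNep, 7.78, 7.76 and 7.60 with high glucose plus DZNep, 8.16, 8.06 and 7.91 with high glucose and 8.15, 8.16 and 8.92 in control (-0.85; -0.60 without control 3). These 2 probes were called with and without control 3, which was the highest array on both. Probe ILMN_3090825 was at 6.39, 6.63 and 6.77 with DZNep, 6.72, 6.59 and 6.71 with high glucose plus DZNep, 7.08, 6.95 and 6.73 with high glucose and 7.05, 6.62 and 7.25 in control, where control 2 overlapped the DZNep arrays (-0.38, not called).

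Srsf6 was the single gene called in both directions. Its bright probe ILMN_2611728 was at 11.59, 11.56 and 11.73 with DZNep, 11.70, 11.48 and 11.58 with high glucose plus DZNep, 11.47, 11.59 and 11.55 with high glucose and 11.40, 11.41 and 11.27 in control, and rose by 0.27 (adjusted p = 0.0307), but was not called without control 3 (0.22, adjusted p = 0.0993). Its dim probe ILMN_1240406 was at 5.58, 5.10 and 5.77 with DZNep, 5.84, 5.90 and 5.68 with high glucose plus DZNep, 6.18, 5.51 and 5.86 with high glucose and 6.09, 6.20 and 6.65 in control (-0.83, adjusted p = 0.0118; -0.66 without control 3, adjusted p = 0.0477). On the bright probe control 3 was the lowest control, and on the dim one the highest.

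Srsf5 fell on both probes. Probe ILMN_2772274 was at 9.60, 9.58 and 9.90 with DZNep, against 10.36, 10.23 and 11.17 in control (-0.90, adjusted p = 0.0102; -0.60 without control 3, adjusted p = 0.0179). Probe ILMN_3148662 was at 10.52, 10.69 and 10.77 with DZNep, against 10.85, 11.01 and 11.22 in control (-0.37, adjusted p = 0.0176; -0.27 without control 3, adjusted p = 0.0616). On both probes all DZNep arrays lay below all controls, although the second was not called without control 3. Srsf11 fell on 2 of 4 probes: ILMN_1222584 was at 10.19, 10.12 and 10.22 with DZNep, against 10.58, 10.51 and 10.74 in control (-0.44; -0.37 without control 3), and ILMN_1259905 at 10.15, 10.07 and 10.22 with DZNep, against 10.44, 10.42 and 10.48 in control (-0.30; -0.28 without control 3). Its probes ILMN_1257639, at 8.90, 9.29 and 8.66 with DZNep, against 8.82, 8.90 and 8.74 in control, and ILMN_2564210, at 7.58, 7.81 and 7.68 with DZNep, against 7.95, 7.19 and 7.05 in control, had changes of 0.13 and 0.29 that were not called. Control 3 was the highest control on the 2 probes that fell and the lowest on the other 2.

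Srsf1, the first SR protein described, fell on ILMN_3142235, at 12.29, 12.36 and 12.37 with DZNep, against 12.55, 12.61 and 12.67 in control (-0.27, adjusted p = 0.00886; -0.24 without control 3). Its second probe, ILMN_2591814, was at 13.05, 13.17 and 12.997 with DZNep, against 13.32, 13.26 and 13.25 in control (-0.21, adjusted p = 0.0998). On both Srsf1 probes all 3 controls lay above the DZNep arrays and close together. Srsf2, also known as SC35, fell on ILMN_2636335, at 13.21, 13.12 and 13.14 with DZNep, against 13.46, 13.32 and 13.44 in control (-0.25; -0.23 without control 3). Its probe ILMN_2806029 was at 10.98, 10.97 and 11.30 with DZNep, against 11.72, 11.32 and 11.43 in control (-0.40, adjusted p = 0.0558), and ILMN_1235653 at 5.59, 5.99 and 6.05 with DZNep, against 6.12, 6.09 and 6.58 in control (-0.39). Srsf3, Srsf4 and Srsf9 were not called. Srsf3 was at 10.03, 10.11 and 10.24 with DZNep, against 10.10, 10.04 and 10.07 in control on ILMN_2733398 (0.06), and at 10.11, 10.17 and 10.28 with DZNep, against 10.14, 10.07 and 10.36 in control on ILMN_2733399 (-0.01). Srsf4 was at 10.82, 10.81 and 10.78 with DZNep, against 10.91, 10.86 and 10.85 in control (-0.07), and Srsf9 at 12.30, 11.99 and 12.22 with DZNep, against 12.32, 12.34 and 12.37 in control (-0.18). Control 3 was the highest control on 1 of the 2 Srsf3 probes and on the Srsf9 probe.

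**Figure D3:**
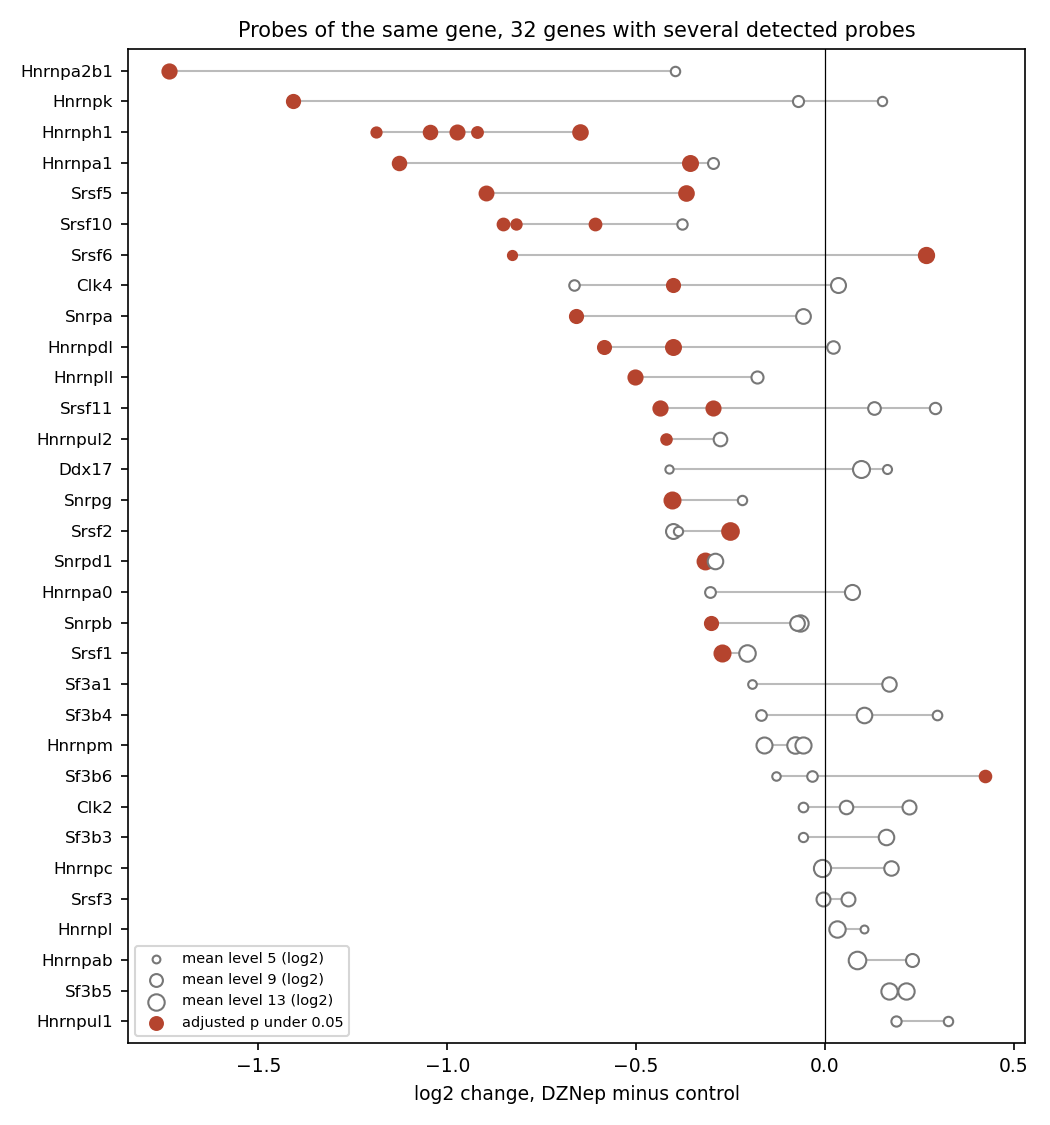
Log2 change (DZNep minus control) of each probe of the 32 genes with several detected probes, with the size of a point showing its mean level and filled points an adjusted p under 0.05. All probes fell for Hnrnph1 and Srsf5, some fell and others were not called for 15 genes, and Hnrnpk has the widest spread, 1.56.

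Of the Clk kinases, which phosphorylate SR proteins, Clk1 fell. Its probe ILMN_2428301 was at 7.89, 8.13 and 8.53 with DZNep, 8.55, 8.47 and 8.48 with high glucose plus DZNep, 8.77, 8.44 and 7.87 with high glucose and 8.96, 8.91 and 10.04 in control (-1.12, SE 0.30, adjusted p = 0.0154; -0.75 without control 3, adjusted p = 0.0434). Control 3 lay 1.10 above the other controls, which themselves lay above all 3 DZNep arrays. Clk4 had 3 probes. The brightest, ILMN_2851710, was at 11.10, 11.36 and 11.31 with DZNep, 11.47, 11.47 and 11.42 with high glucose plus DZNep, 11.17, 11.18 and 11.23 with high glucose and 11.22, 11.30 and 11.14 in control (0.03). Probe ILMN_2745251 was at 8.61, 9.08 and 9.23 with DZNep, 9.31, 9.44 and 9.44 with high glucose plus DZNep, 8.93, 9.14 and 9.03 with high glucose and 9.44, 9.27 and 9.42 in control (-0.40, adjusted p = 0.0433; -0.38 without control 3, adjusted p = 0.11). The DZNep arrays of this probe lay below the controls without overlap, but the call was lost without control 3. Probe ILMN_2737517 was at 6.56, 6.53 and 6.91 with DZNep, 6.85, 6.80 and 6.70 with high glucose plus DZNep, 7.21, 6.77 and 6.63 with high glucose and 6.95, 7.07 and 7.97 in control, with control 3 above the others by 0.96 (-0.67, adjusted p = 0.0537).

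Clk2 and Clk3 were not called. Clk2 probe ILMN_1238520 was at 10.19, 10.31 and 10.29 with DZNep, 10.21, 10.29 and 10.26 with high glucose plus DZNep, 10.12, 10.07 and 10.19 with high glucose and 10.16, 10.14 and 9.81 in control (0.22), with control 3 lowest of the 12. Clk2 probe ILMN_2885016 was at 9.73, 9.71 and 9.76 with DZNep, 9.62, 9.71 and 9.87 with high glucose plus DZNep, 9.50, 9.65 and 9.61 with high glucose and 9.64, 9.69 and 9.70 in control (0.06), and ILMN_1237842 at 5.59, 6.51 and 6.56 with DZNep, 6.52, 5.69 and 6.39 with high glucose plus DZNep, 6.32, 6.07 and 6.01 with high glucose and 6.30, 6.24 and 6.29 in control (-0.06). The controls of these 2 probes lay close together. Clk3 was at 10.49, 10.41 and 10.45 with DZNep, 10.32, 10.46 and 10.38 with high glucose plus DZNep, 10.49, 10.38 and 10.39 with high glucose and 10.35, 10.37 and 10.40 in control (0.08).

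Among snRNP proteins, Snrpa, which codes for the A protein of the U1 snRNP, fell on ILMN_1247582, at 8.91, 8.88 and 9.06 with DZNep, against 9.41, 9.57 and 9.85 in control (-0.66, adjusted p = 0.00402; -0.54 without control 3, adjusted p = 0.0148). Its other probe, ILMN_2667509, was at 10.97, 11.02 and 10.89 with DZNep, 10.92, 10.78 and 10.90 with high glucose plus DZNep, 11.10, 11.14 and 11.05 with high glucose and 11.06, 11.07 and 10.93 in control (-0.06). Control 3 was the highest control on the first and the lowest on the second. The remaining genes of the family code for Sm proteins, which form the ring shared by most spliceosomal snRNPs. Snrpg fell on ILMN_2975640, at 12.28, 12.08 and 12.23 with DZNep, 12.34, 12.37 and 12.30 with high glucose plus DZNep, 12.55, 12.56 and 12.54 with high glucose and 12.51, 12.57 and 12.73 in control (-0.40, adjusted p = 0.00344; -0.34 without control 3). Its dim probe ILMN_2442140 was at 5.83, 5.83 and 5.91 with DZNep, 5.75, 5.96 and 5.71 with high glucose plus DZNep, 6.61, 6.30 and 6.36 with high glucose and 6.09, 5.80 and 6.34 in control (-0.22). The DZNep arrays lay below control without overlap on the bright probe and overlapped it on the dim one.

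Snrpb, Snrpd1 and Snrpf each had a probe that fell with all arrays and was not called without control 3. Snrpb probe ILMN_1239795 was at 9.17, 8.996 and 9.04 with DZNep, 9.08, 9.16 and 9.08 with high glucose plus DZNep, 9.46, 9.46 and 9.44 with high glucose and 9.19, 9.28 and 9.64 in control (-0.30, adjusted p = 0.0484; -0.17 without control 3, adjusted p = 0.141). Snrpd1 probe ILMN_2610105 was at 12.10, 12.03 and 12.26 with DZNep, against 12.30, 12.34 and 12.70 in control (-0.32; -0.19 without control 3, adjusted p = 0.151). Snrpf was at 12.02, 11.85 and 12.04 with DZNep, against 12.14, 12.16 and 12.33 in control (-0.24; -0.18 without control 3, adjusted p = 0.157). On these 3 probes control 3 was the highest control. The brighter Snrpb probes were at 12.85, 12.96 and 12.80 with DZNep, 12.82, 12.84 and 12.87 with high glucose plus DZNep, 12.85, 12.80 and 12.87 with high glucose and 13.07, 12.93 and 12.80 in control on ILMN_1239922 (-0.07), and at 10.90, 10.88 and 10.94 with DZNep, 10.79, 10.86 and 10.94 with high glucose plus DZNep, 10.92, 10.94 and 10.98 with high glucose and 10.99, 11.10 and 10.86 in control on ILMN_1223667 (-0.07), with control 3 the lowest control on both. Snrpd1 probe ILMN_1225361 was at 11.85, 11.62 and 11.95 with DZNep, against 11.96, 12.01 and 12.33 in control (-0.29), Snrpd2 at 13.38, 13.18 and 13.31 with DZNep, against 13.21, 13.40 and 13.48 in control (-0.08), and Snrpd3 at 11.87, 12.29 and 12.24 with DZNep, against 12.39, 12.34 and 12.44 in control (-0.26). None of these 3 was called.

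The SF3 genes code for the SF3A and SF3B complexes of the U2 snRNP, which recognise the branch point. Sf3b6, whose product contacts the branch-point adenosine, rose on ILMN_2952292, at 7.84, 7.79 and 7.80 with DZNep, 7.99, 7.89 and 7.70 with high glucose plus DZNep, 8.12, 7.92 and 7.61 with high glucose and 7.35, 7.40 and 7.41 in control (0.42, SE 0.12, adjusted p = 0.0195; 0.43 without control 3, adjusted p = 0.044). The 3 controls lay close together and below the 9 other arrays. The other Sf3b6 probes were at 7.02, 7.25 and 6.92 with DZNep, 6.77, 6.95 and 6.95 with high glucose plus DZNep, 6.78, 6.73 and 6.96 with high glucose and 7.12, 7.19 and 6.99 in control on ILMN_2556771 (-0.04), and at 5.14, 5.08 and 5.57 with DZNep, 5.91, 5.62 and 5.54 with high glucose plus DZNep, 5.51, 5.40 and 5.30 with high glucose and 5.47, 5.43 and 5.28 in control on ILMN_2551266 (-0.13). Their groups overlapped.

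No other SF3 probe was called with DZNep. Sf3a3 was at 12.11, 12.26 and 12.15 with DZNep, 12.30, 12.24 and 12.23 with high glucose plus DZNep, 11.99, 12.07 and 12.07 with high glucose and 12.17, 12.13 and 12.23 in control (-0.00). Sf3a1 was at 10.69, 10.67 and 10.70 with DZNep, against 10.66, 10.46 and 10.43 in control on ILMN_2630730 (0.17), and at 5.48, 5.28 and 5.11 with DZNep, against 5.48, 5.26 and 5.71 in control on ILMN_1215857 (-0.19). Sf3a2 was at 6.43, 6.39 and 6.08 with DZNep, against 6.17, 6.37 and 5.34 in control (0.34), and control 3 minus the mean of the other controls was -0.93. Sf3b1, a target of splicing inhibitors, was at 5.03, 5.56 and 5.67 with DZNep, against 5.29, 5.10 and 5.94 in control (-0.02), and Sf3b2 at 13.46, 13.40 and 13.51 with DZNep, against 13.28, 13.39 and 13.31 in control (0.13). Sf3b3 was at 12.02, 11.96 and 11.95 with DZNep, against 11.85, 11.85 and 11.74 in control on ILMN_1237140 (0.16), and at 6.30, 6.11 and 5.47 with DZNep, against 6.26, 6.14 and 5.66 in control on ILMN_1253435 (-0.06). Control 3 was the highest control for Sf3b1, and the lowest for both Sf3b3 probes. Sf3b4 was at 12.16, 11.97 and 11.97 with DZNep, against 11.99, 11.93 and 11.87 in control on ILMN_2612502 (0.10), at 6.04, 6.31 and 6.58 with DZNep, against 6.29, 5.79 and 5.96 in control on ILMN_3051392 (0.30), and at 6.96, 7.01 and 6.91 with DZNep, against 6.75, 7.01 and 7.64 in control on ILMN_3127739 (-0.17, with control 3 above the others by 0.76). Sf3b5 was at 13.06, 12.91 and 12.96 with DZNep, against 12.84, 12.70 and 12.75 in control on ILMN_2674936 (0.21, adjusted p = 0.0553), and at 13.08, 12.86 and 12.90 with DZNep, against 12.66, 12.86 and 12.81 in control on ILMN_2975956 (0.17). On the first Sf3b5 probe the DZNep arrays lay above the controls without overlap.

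The probes with a high control 3 were also those with the largest falls. All 15 probes that fell by more than 0.8 had their highest level in control 3, and 13 of them had their lowest in a DZNep array. Control 3 is part of the control mean, so choosing probes by the size of the fall favours both features. Their share among all probes with falls of this size was not counted. Of the 21 probes on which control 3 exceeded the mean of controls 1 and 2 by over 0.5, 16 fell with DZNep, and 15 of these were called without control 3. On 17 of the 21, controls 1 and 2 both lay above all 3 DZNep arrays. Of all probes, 14.1% fell with DZNep and 19.7% were lower without overlap. These shares were not counted among the 883 of all probes with control 3 that high, so the counts cannot be called particular to splicing genes. On 19 of the 21, high glucose 1 was the highest of its group, against 34% of all probes. Of the other 79 probes 19 fell and 2 rose, and 13 fell and 1 rose without control 3. Leaving out control 3 changed the size of the fall: the change without it was 0.554 to 1.09 times that with all arrays among the 35 probes, with a median of 0.763. The change with all arrays was over 1.5 times that without control 3 for 5 of them (2 of Hnrnph1, and 1 each of Hnrnph3, Snrpb and Snrpd1). Whether control 3 differs in RNA, culture or hybridisation was not tested.

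**Figure D4:**
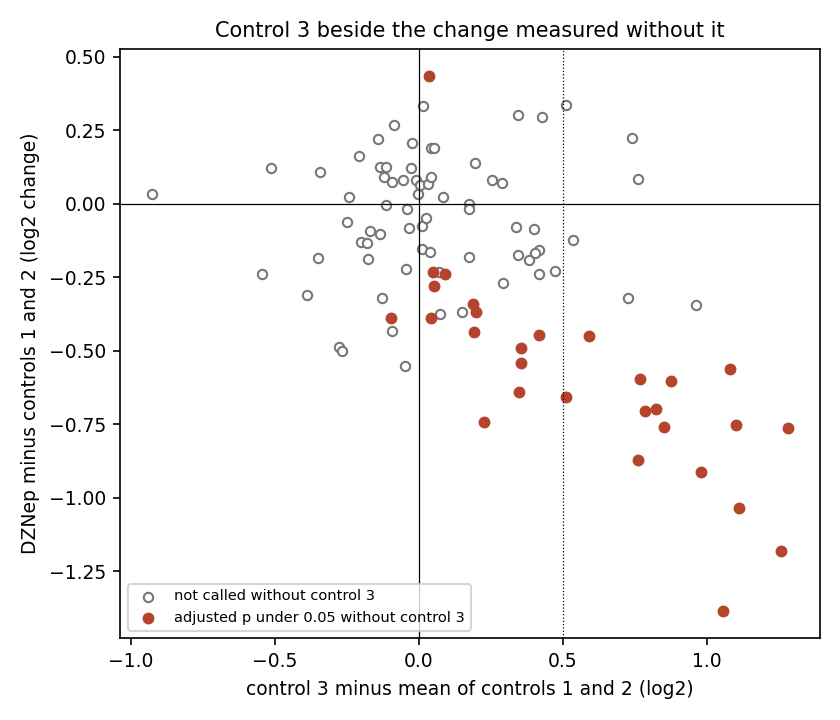
Control 3 minus the mean of controls 1 and 2 (x axis, log2) and the change of DZNep against controls 1 and 2 alone (y axis, log2) for the 100 probes, with filled points called without control 3 and a dotted line at 0.5. Of the 21 probes right of the line 15 are filled and below 0.

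The falls were found at most brightness levels. Of 36 probes with a mean level under 8, 9 fell (7 without control 3), against 12.3% of all probes in that range (8.73% without control 3). Of 33 between 8 and 11, 18 fell (15 without control 3), against 16.5% of all probes (12.5% without control 3). Of 31 above 11, 8 fell (6 without control 3), against 13.8% of all probes (9.98% without control 3), with no change lower than -0.76 among these brightest members. Probes of 1 gene often differed. Among 32 genes with several detected probes, all probes fell for 2, some fell and the rest were not called for 15, none was called for 13, and the probe with the highest mean fell for 12. The annotation names a transcript record for each probe, and the Hnrnpa2b1 probes, for example, are assigned to different records. The exons and the full set of transcripts that each probe reads are not given in the sources used here.

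In high glucose, 10 of the 100 probes fell and 3 rose with high glucose plus DZNep against high glucose, while 19.0% of all probes were called (10.1% higher and 8.93% lower). This comparison shares no array with DZNep against control. The count of 13 depended on single arrays. It was 2 to 5 without any 1 of the 6 arrays compared, 7 to 10 without a DZNep array and 8 without control 1 or control 2. It was 18 without control 3, where 21.8% of all probes were called (11.4% higher and 10.4% lower). The count over all probes also fell, from 3100 to between 1943 and 2567 without any 1 of the 6 arrays compared. The DZNep and control arrays enter this comparison through the normalization and the shared estimate of the spread. The median change was -0.07, against 0.01 over all probes.

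Of the probes that fell in high glucose, 6 had also fallen with DZNep against control, which is 60% of the 10 and 17.1% of the 35. Over all probes the shares were 57.1% and 36.2%. These 6 were Tra2a, both Srsf10 probes ILMN_1248565 and ILMN_2698282, Hnrnpll ILMN_2684732, Hnrnpdl ILMN_2690061 and Snrpb ILMN_1239795. Tra2a changed by -0.33 in high glucose (adjusted p = 0.0454), the Srsf10 probes by -0.45 and -0.37, Hnrnpll by -0.35, Hnrnpdl by -0.23 and Snrpb by -0.35. On these 6 probes the high glucose plus DZNep arrays lay below the high glucose arrays without overlap. The other 4 that fell were Snrpg ILMN_2442140 (-0.61, adjusted p = 0.00847), Hnrnpdl ILMN_2903440 (-0.47), Hnrnpll ILMN_2768850 (-0.44) and Snrpa ILMN_2667509 (-0.23). The 3 that rose were Hnrnpab ILMN_1259056 (0.27, adjusted p = 0.0472), Clk4 ILMN_2851710 (0.26, adjusted p = 0.042) and Sf3a3 (0.21, adjusted p = 0.0482). Hnrnpab ILMN_1259056 was at 9.40, 9.15 and 9.32 with DZNep, 9.22, 9.31 and 9.31 with high glucose plus DZNep, 9.02, 8.99 and 9.02 with high glucose and 9.09, 9.16 and 8.92 in control.

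The probes with the largest falls with DZNep against control were not called in high glucose with all arrays. Hnrnpa2b1 ILMN_2615855 changed by -0.48 (adjusted p = 0.292), Ddx5 by -0.01, Hnrnpk ILMN_1245987 by -0.29, Tra2b by -0.16 and Clk1 by 0.14. Hnrnpa1 ILMN_3096701 changed by -0.44 (adjusted p = 0.155) and was called lower in the fit without control 3 (adjusted p = 0.0454). On the Hnrnpa2b1 and Hnrnpa1 probes the high glucose plus DZNep arrays lay below the high glucose arrays without overlap. On the Ddx5, Hnrnpk, Tra2b and Clk1 probes these groups overlapped. The difference between both DZNep effects, the interaction, was called for 0 of the 100 probes, and for 0.0368% of all probes. At an unadjusted p under 0.05 there were 24 of the 100, 21 of them with a smaller fall or a rise in high glucose, against 15.6% of all probes. The lowest adjusted p of the interaction was 0.137, for Clk4 ILMN_2745251 (0.76), which changed by 0.36 with DZNep in high glucose and by -0.40 against control. The interaction was 1.59 for Ddx5 (adjusted p = 0.207) and 1.26 for Clk1 (adjusted p = 0.206). Control 3, the highest control on both, enters this contrast. For Hnrnpa2b1 ILMN_2615855 it was 1.25 (adjusted p = 0.21), and 0.90 without control 3 (adjusted p = 0.339). The median was 0.13 for the 100 probes, against -0.04 over all probes, and 0.12 against -0.03 without control 3. Without that array 0 probes were called, among the 100 and over all probes.

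**Figure D5:**
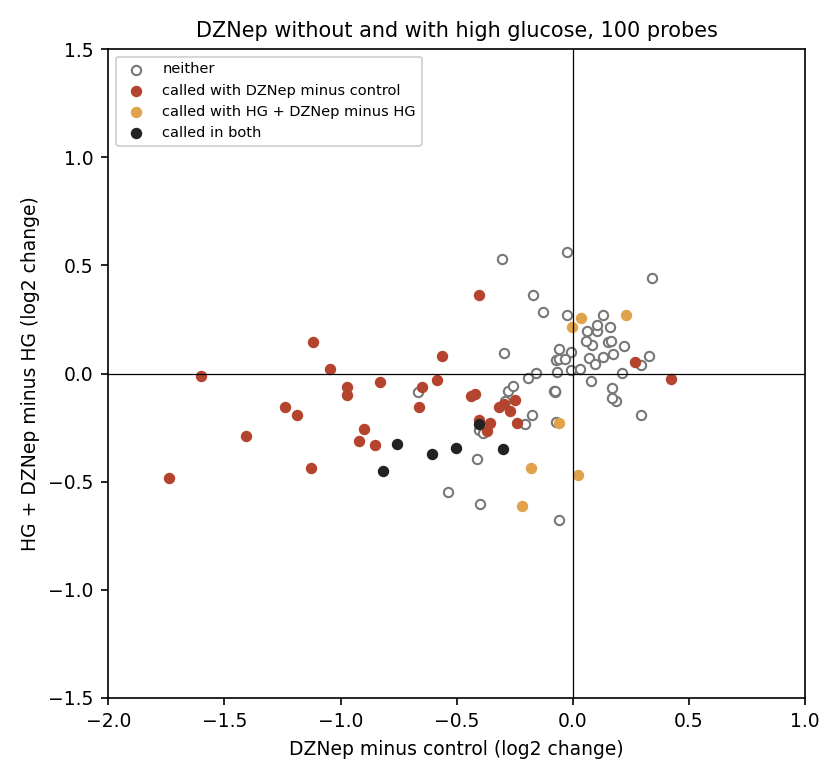
Log2 change of the 100 probes with DZNep against control (x axis) and with high glucose plus DZNep against high glucose (y axis), coloured by the comparison in which a probe was called. The 6 probes called in both lie below 0 on both axes, and the 8 probes under -1 on the x axis lie between -0.48 and 0.14 on the y axis.

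High glucose alone called 0 of the 100 probes in the limma fit, against 0.123% of all probes. At an unadjusted p under 0.05 there were 24, of which 21 were lower and 3 higher with high glucose, against 18.0% of all probes. Quantile normalization of uncorrected intensities gave 2 calls, and 283 over all probes. The lowest adjusted p was 0.107, for Sf3b6 ILMN_2952292 (0.49). Without control 3, 0 were called (0.0858% of all probes), 12 had an unadjusted p under 0.05 (11.7% of all probes), and the lowest adjusted p was 0.248. The difference with high glucose was -0.92 for Hnrnpa2b1 ILMN_2615855 (adjusted p = 0.159), and -0.56 without control 3 (adjusted p = 0.417). For Ddx5 it was -1.18 (adjusted p = 0.153), and -0.77 without control 3 (adjusted p = 0.41). Of the high glucose arrays, high glucose 1 was the highest and high glucose 3 the lowest of the 3 arrays for both. Added to DZNep, high glucose called 0 probes, against 0.0736% of all probes, and 7 had an unadjusted p under 0.05, against 9.56% of all probes (lowest adjusted p 0.24). High glucose plus DZNep against control, which shares the 3 control arrays with the DZNep comparison, gave 28 probes lower and 1 higher, against 26.0% of all probes called (14.2% higher and 11.8% lower). Without control 3 it gave 15 lower and 2 higher, against 19.3% of all probes called (10.5% higher and 8.79% lower). The count of 29 was 15, 12 and 13 without high glucose plus DZNep 1, 2 and 3. Over all probes the count of 4239 was then 3176, 2779 and 2774. There Hnrnpa2b1 ILMN_2615855 changed by -1.40 (-1.05 without control 3), Tra2a by -0.64 (-0.52) and Sf3b6 ILMN_2952292 by 0.47 (0.48), and all 3 were called in either setting.

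Other genes of splicing, taken from 4 lists, were counted in the same fit. The shares of all probes to set beside these counts are 17.1% higher and 14.1% lower with DZNep, and 12.4% and 10.3% without control 3. Of 71 probes of 39 other core spliceosome genes 8 rose (11.3%) and 4 fell (5.63%) with DZNep, or 4 and 2 without control 3, with a median change of 0.04. Dhx8 rose by 0.47 with and without control 3. Snw1, Zmat2 and Crnkl1 rose by 0.61, 0.53 and 0.33, and were not called without control 3 (adjusted p = 0.0548, 0.0891 and 0.129). Prpf8, a scaffold at the heart of the spliceosome, changed by -1.05 on 1 of 2 probes and Dhx15 by -0.74 on 1 of 2, both called in either setting. This Prpf8 probe was dim, at 5.13, 5.05 and 5.54 with DZNep, and the bright Prpf8 probe was not called (0.25). Slu7 changed by -0.97 on one probe, where control 3 lay 1.10 above the mean of the others, and by 0.33 on the other, which was called higher. Prpf3 changed by -0.71 on 1 of 5 probes. Without control 3, neither the falls of Slu7 (-0.60, adjusted p = 0.104) and Prpf3 (-0.50, adjusted p = 0.149) nor the rise of Slu7 (0.0526) were called.

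Of 80 probes of 36 other regulators of splicing 20 fell (25%) and 11 rose (13.8%), or 16 and 8 without control 3. Khdrbs1 (Sam68) fell on both probes (-0.87 and -0.67), and Matr3 also on both (-1.08 and -0.36), each with and without control 3. Ptbp3 rose by 0.73 and Taf15 by 0.60, also in either setting. Other genes were called in both directions. Rbm6 changed by -1.15 on one probe and by 0.35 on another, both called in either setting. Tardbp (TDP-43) changed by -0.75 on one probe, which was not called without control 3 (adjusted p = 0.128), and by 0.38 on another, which was. Tia1 changed by 0.55 on one probe and by -0.46 and -0.47 on others, and the last of these was not called without control 3 (-0.31, adjusted p = 0.174). Ptbp1, the polypyrimidine tract binding protein, rose on 3 of 10 probes, by 0.43, 0.39 and 0.25, the last not called without control 3 (adjusted p = 0.0917).

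Of 41 probes of 22 SR protein kinase and nuclear speckle genes 8 fell (19.5%) and 4 rose (9.76%), or 5 and 2 without control 3. Pnisr fell on both of its probes (-0.97 each) and Srek1 on 1 of 5 (-0.68), both genes with and without control 3, and the kinase Srpk1 rose by 0.37 but was not called without control 3 (adjusted p = 0.0802). Of 40 probes of 22 genes for Sm-like proteins and snRNP assembly 5 fell (12.5%) and 2 rose (5%), or 3 and 2 without control 3. The dim Gemin8 probe fell by 0.84 and 2 of 3 Gemin4 probes rose (0.43 and 0.35), in either setting. Prmt5 changed by -0.60 on 1 of 3 probes, which was not called without control 3 (-0.40, adjusted p = 0.128).

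In high glucose, where 10.1% of all probes were higher and 8.93% lower with DZNep, 10 of the 71 core spliceosome probes rose and 1 fell, and 14 of the 80 probes of other regulators fell and 8 rose. Of the 41 kinase and speckle probes 3 fell and 1 rose, and of the 40 assembly probes 2 rose and 1 fell. Both Pnisr probes fell again (-0.52 and -0.49), as did both Khdrbs1 probes (-0.42 each) and 1 of the Matr3 probes (-0.60), and the same 2 Gemin4 probes rose again (0.33 and 0.28). The dim Prpf8 probe that fell against control rose in high glucose (0.84), while the bright one was not called (0.02). The interaction was called for 0 of the 71 core spliceosome probes. High glucose against control called 0 probes in each of the 4 lists.

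The profile of Hnrnpa2b1 and Ddx5 over the 12 arrays was not limited to splicing genes. Among probes of other genes, those with the highest Pearson correlation with the mean of the Hnrnpa2b1 and Ddx5 probes were 2 probes of Rbbp7 (r = 0.996 and 0.992), a histone-binding subunit of PRC2 and other complexes, and probes of Trim23 (0.996), Rab6a (0.992) and Gm5643 (0.992). The 12 arrays share their groups and control 3, so these values are a description. Leaving out the Hnrnpa2b1 and Ddx5 probes that make the profile, 11 of the other 98 splicing factor probes had r over 0.95, against 0.877% of all probes.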

How the data were processed

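Total RNA of 12 samples of cultured mouse podocytes was hybridised to Illumina arrays, with groups and replicate numbers taken from the labels. The authors deposited linear intensity values and detection p-values per probe, per the file headers; GenomeStudio is named in the submitters' processing notes. A second deposited table of intensity values is a linear function of the first on each array (factor 0.832 to 1.12) and served as an alternative.

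Background was estimated through the detection p-values, and corrected intensities were normalized between arrays by quantiles and log2 transformed (neqc, offset 16, limma 3.58.1, R 4.3.3). A limma model of 4 group means was fitted over the 16311 probes, with 11.29 residual and prior degrees of freedom together and Benjamini-Hochberg adjustment over all probes of a comparison (6 in all). The fit was tested on simulated data, but the settings and outcome of that test are not given here. No conclusion is drawn from it, in particular for an array that deviates on many probes at once. The members and gene lists were chosen with earlier results of these data known. Values on every array are given for 49 probes of 21 genes: Hnrnpa2b1, Ddx5, Ddx17, Clk and Tra2 genes, up to 8 probes with the largest called change each way for DZNep against control, high glucose against control and DZNep in high glucose, up to 4 for the rest, and the other probes of those genes. The alternatives were another background correction, scaling, the authors' values, filters, 1 value per gene, a replicate block, array weights, fewer arrays and leaving out each array. The number of arrays limits the precision. Slides and scan dates are not given in the sources used here. The other listed podocyte markers are not reported here.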

Additional observations from a re-analysis of the deposited data

How the results depend on the processing

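With DZNep against control, 37 probes were called, and 23 of 50 genes were called with the probe of the highest mean (20 lower, 3 higher) or with the mean of the probes (22 lower, 1 higher) standing for each gene. Leaving out 1 array gave 25 to 39 calls, and 22 of the 37 were kept in every such fit and 18 under every alternative. With DZNep in high glucose (13 called), 22 were called with quantile normalization and no background correction, 2 with arrays centred on their medians, 7 with the authors' processed values, 4 with no filter on dim probes, 8 with either way of taking 1 value per gene, 30 with array weights, and 2 to 18 without 1 array, so that 1 of the 13 calls was kept in every fit without 1 array and 0 under every alternative. For high glucose plus DZNep against control (29 called), 19 and 16 genes were called with the probe of the highest mean and with the mean of the probes, 17 probes with only the arrays compared, and 12 to 32 without 1 array. With quantile normalization and no background correction 2 probes were called for high glucose against control and 1 for the interaction, in place of 0. Over all 16311 probes 283 and 145 were then called, in place of 20 and 6. The calls over all probes for DZNep in high glucose moved as well, from 3100 to 3727 with that setting. They were 1906 with arrays centred on their medians, 3141 with the authors' values, 5198 with array weights and 1943 to 3552 without 1 array. The cause of these shifts was not tested, except that 1 value per gene leaves 50 items in place of 100. With the probe of the highest mean per gene, Clk4 (0.034) and Srsf6 (0.27) were above 0 with DZNep against control and Snrpb (0.006) in high glucose, each opposite to the called dimmer probe, and the mean of the probes turned the rise of Srsf6 to -0.28. With the replicate number as a block, 33 probes were called for DZNep against control, 4 for DZNep in high glucose and 26 for high glucose plus DZNep against control. Deviations of same-numbered arrays correlated at -0.262 to 0.209, with 2 of 18 pairs over 0.1, and those of other pairs at -0.229 to 0.293. Of 12 arrays 3 correlated best with their own number. Whether same-numbered samples shared a culture or batch was not tested. Other results for single probes, without a change of direction, lost their call under an alternative 123 times and gained one 77 times for DZNep against control, and 135 and 63 times for DZNep in high glucose. Dim probes limit what can be read: 10 of the 100 were detected on 3 to 11 arrays, and their changes are understated by the offset.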
